A study of Bos taurus and Bos indicus with 3 samples.

Results

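The genes described here make heme and build the red cell: ALAS2, ALAS1, ALAD, UROD and FECH of the heme pathway, the hemoglobin chain genes HBA and HBB with AHSP, and SLC4A1 and EPB42 of the red cell membrane. They were looked up in the deposited expression table under their symbols and under the entry names of the bovine proteins. Of the 10 symbols, 9 stood on a model and SLC4A1 on none, which gave 10 of the 25968 gene models, because HBA stood on a pair of models. The estimates were above 0 in at least 1 library for 9 of these models, and AHSP was listed at 0 throughout. The study sequenced polyadenylated RNA from white blood cells of the indicine breed Cholistani (45 cows in Pakistan) and of the taurine breeds Jersey (7 cows) and Holstein (40 cows, both in Wisconsin) to compare their transcriptomes. Equal volumes of blood were pooled within a breed before the white cells were isolated, red cells were lysed by washing, and each pool gave 1 library. Each breed was sampled at its own farm or station, also the Jersey and Holstein cows, and the Cholistani RNA alone travelled in a dry storage matrix. Breed, farm and, for Cholistani, RNA transport therefore cannot be told apart. Ages and stages of the cows were not given in the sources used here.

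Heme is built from glycine and succinyl-CoA in a chain of enzymes that starts and ends in the mitochondrion. The first step, which limits the rate, is carried by ALAS1 in every nucleated cell and by ALAS2 in red cell precursors, where iron controls the translation of its mRNA. ALAD, UROS and UROD work in the cytosol, and CPOX, PPOX and FECH finish the ring and insert iron. Adult hemoglobin pairs alpha chains from HBA with beta chains from HBB, and AHSP binds free alpha chains. SLC4A1 (band 3) is the anion exchanger of the red cell membrane, which EPB42 (protein 4.2) helps to tie to the skeleton. Mature red cells of mammals have no nucleus, and healthy adult cattle release few of the reticulocytes that still carry RNA, so in preparations of white blood cells the transcripts of the red cell lineage are usually traces.

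Levels are FPKM, that is fragments per kilobase of exon scaled by library, with the upper-quartile normalization of the study. The division by exon length allows levels to be compared between genes. Folds are log2 ratios of FPKM + 1, and genes at least 2-fold apart were counted as higher or lower. With 1 library per breed there was no spread, no test and no error of any value, and the number of fragments behind a value is unknown, so where a library is listed at 0 no fold is given. The deposited values summed to 9518430 FPKM in Cholistani, 6288100 in Jersey and 5949770 in Holstein. Of all models at least 2-fold apart between Cholistani and Holstein, 58.9% were higher in Cholistani on the deposited scale and 29.7% after each library was rescaled to the mean sum. The median log2 fold over all 15284 models above 0 was 0.15 on the deposited scale and -0.43 after that rescaling. For this reason levels are also given as percentiles and as ratios within a library, which no scaling of the library changes. In such mixed samples, fewer cells of a type and less RNA per cell cannot be told apart.

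ALAS2, the erythroid enzyme of the first step, differed most among the heme enzymes. It had 32.3 FPKM in Cholistani, 363 FPKM in Jersey and 536 FPKM in Holstein. The Cholistani value was low and both taurine values were high, which placed ALAS2 at percentile 27.7 of the models above 0 in the Cholistani library, 83.7 in Jersey and 89.0 in Holstein. The log2 fold was -4.01 for Cholistani over Holstein and -3.45 for Cholistani over Jersey. It was -0.56 for Jersey over Holstein, less than 2-fold. ALAS2 lay on chromosome X from 60276583 to 60303743 on btau4.0, and no other model shared that span.

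ALAS1, which serves the same step outside the red cell lineage, was nearly level. It had 210.1 FPKM in Cholistani, 211 in Jersey and 217 in Holstein, with log2 folds of -0.05, -0.01 and -0.04 for Cholistani over Holstein, Cholistani over Jersey and Jersey over Holstein. After rescaling the fold of Cholistani over Holstein was -0.72, still less than 2-fold. The ratio of ALAS2 to ALAS1 within a library was 0.154 in Cholistani, 1.72 in Jersey and 2.47 in Holstein. ALAS1 was thus the more abundant of these isoenzyme transcripts in Cholistani, at 6.49 times ALAS2, and ALAS2 the more abundant in both taurine libraries.

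**Figure D1:**
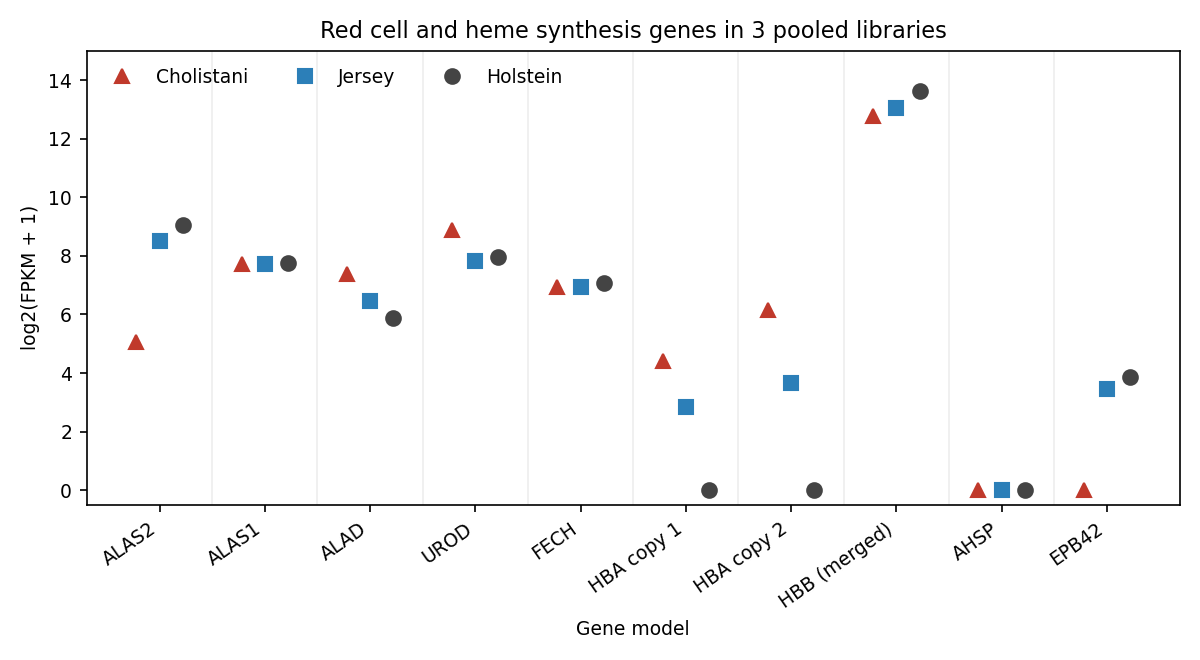
Level of each gene model as log2(FPKM + 1) (vertical axis) in the Cholistani (triangles), Jersey (squares) and Holstein (circles) libraries, 1 point per library. The Cholistani point of ALAS2 (32.3 FPKM) lies far below the taurine points (363 and 536 FPKM), the points of ALAS1 and FECH nearly coincide, and HBA has its highest points in Cholistani while the merged HBB model has its highest in Holstein.

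Of the later heme enzymes, ALAD and UROD had their highest values in Cholistani. ALAD, which joins a pair of aminolevulinic acid molecules into porphobilinogen, had 165 FPKM in Cholistani, 87.4 in Jersey and 57.5 in Holstein. Its order was the reverse of that of ALAS2, with a log2 fold of 1.502 for Cholistani over Holstein, 0.91 for Cholistani over Jersey and 0.60 for Jersey over Holstein. ALAD stayed higher in Cholistani than in Holstein under the 3 other scalings (0.83 to 1.31), but it was less than 2-fold higher after rescaling to the mean sum (0.83) and relative to GAPDH (0.96).

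UROD, which decarboxylates uroporphyrinogen, had 472 FPKM in Cholistani, 225 in Jersey and 247 in Holstein. Its Cholistani value stood above both taurine values, which lay close together. The log2 fold was 1.07 over Jersey, past 2-fold, and 0.93 over Holstein, short of it. Over Jersey it was 0.47 after rescaling, 0.89 after centring on the median of models and 0.64 relative to GAPDH, all short of 2-fold. FECH, which inserts iron into the ring, had 121.2 FPKM in Cholistani, 121.3 in Jersey and 133 in Holstein, with a log2 fold of -0.13 for Cholistani over Holstein and -0.81 after rescaling. UROD stood at 3.90 times FECH in Cholistani, 1.86 times in Jersey and 1.86 times in Holstein.

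Of the other heme enzymes analysed, PPOX differed little and CPOX was lower in Cholistani than in Holstein. CPOX, coproporphyrinogen oxidase, had 57.6 FPKM in Cholistani, 100.8 in Jersey and 143 in Holstein. This was the order of ALAS2 at a smaller size, with log2 folds of -1.30 for Cholistani over Holstein, -0.80 for Cholistani over Jersey and -0.50 for Jersey over Holstein. Cholistani over Jersey was past 2-fold after rescaling (-1.39) and relative to GAPDH (-1.22), but not after centring (-0.97). PPOX, protoporphyrinogen oxidase, had 91.6 FPKM in Cholistani, 86.1 in Jersey and 71.2 in Holstein. Its log2 fold of Cholistani over Holstein, 0.36, turned to -0.31 after rescaling and to -0.18 relative to GAPDH. UROS had no model under its name. Of the 7 enzyme genes analysed, Cholistani exceeded Holstein by 2-fold or more in 1 (ALAD) and lay below it by 2-fold or more in 2 (ALAS2 and CPOX), with a median log2 fold of -0.05 against 0.15 over all models. The shares over all models were 19.7% higher and 13.7% lower. After rescaling 0 were higher and 2 (again ALAS2 and CPOX) lower, with a median of -0.72 against -0.43 over all models. The shares were then 11.6% higher and 27.5% lower. Against Jersey 1 (UROD) was higher and 1 (ALAS2) lower on the deposited scale (17.2% and 14.2% of all models). After rescaling 0 were higher than in Jersey and 2 (ALAS2 and CPOX) lower (10.4% and 26.2% of all models). None of the 7 differed at least 2-fold between Jersey and Holstein (7.99% of all models higher and 4.7% lower in Jersey).

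ALAS2 made up 2.81% of the summed FPKM of these 7 enzymes in Cholistani, 30.4% in Jersey and 38.1% in Holstein. Without ALAS2 the others summed to 1117 FPKM in Cholistani, 832 in Jersey and 869 in Holstein. ALAS2 was the lowest of the 7 in Cholistani and the highest in both taurine libraries, whereas UROD was the highest in Cholistani.

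**Figure D2:**
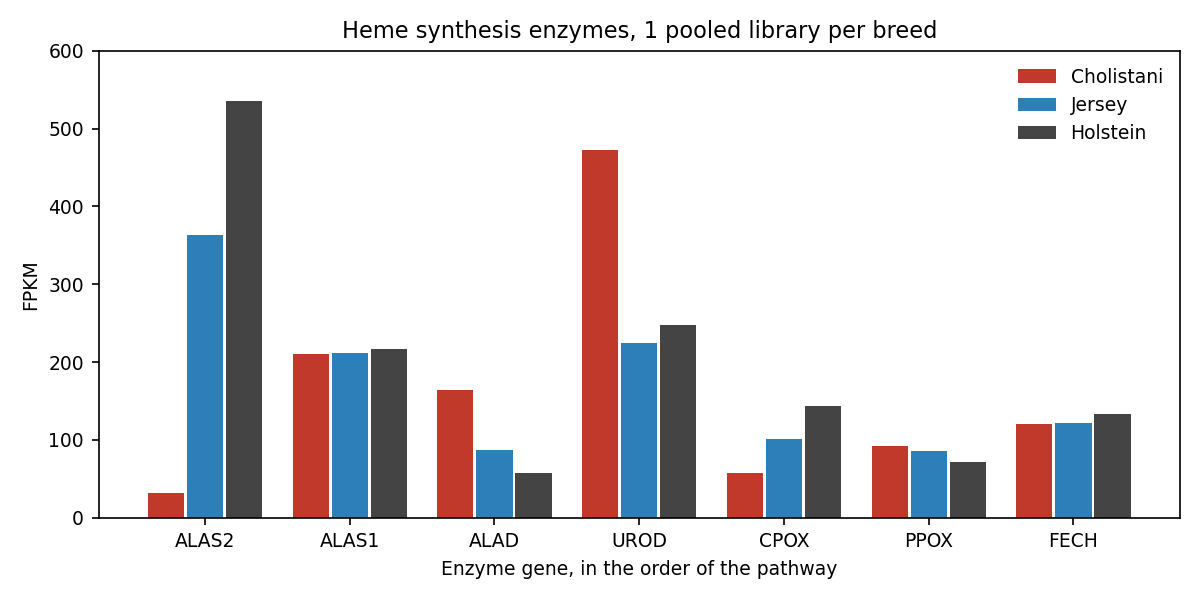
FPKM (linear axis from 0) of 7 heme enzyme genes in the order of the pathway, with 1 bar per library for Cholistani, Jersey and Holstein and no error bars, because each breed has 1 library. ALAS2 is the tallest group in Jersey (363 FPKM) and Holstein (536 FPKM) and the shortest in Cholistani (32.3 FPKM), and the tallest Cholistani bar is that of UROD (472 FPKM).

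The values listed for the hemoglobin models ran in opposite orders, with the lowest beta chain values and the highest alpha chain values in Cholistani. HBB stood only on a merged model that also carried the names of the fetal chain HBBF and the embryonic chain HBE4. The merged model spanned 77550 bases on chromosome 15 from 47809667 to 47887216, and its value cannot be assigned to HBB alone. The other 2 models listed with that span, 1 of them HBE2, were at 0 in all libraries. It had 6952 FPKM in Cholistani, 8495 in Jersey and 12696 in Holstein, the highest values among the 10 models. By abundance it ranked 201 among all models in Cholistani, 140 in Jersey and 77 in Holstein. The log2 fold was -0.87 for Cholistani over Holstein, -0.29 for Cholistani over Jersey and -0.58 for Jersey over Holstein. None of these reached 2-fold on the deposited scale, but Cholistani over Holstein did under the 3 other scalings (-1.55 after rescaling, -1.06 after centring, -1.42 relative to GAPDH).

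A separate HBBF model, the fetal beta-type chain, lay beside it from 47899774 to 47901388. It had 28.8 FPKM in Cholistani, 116 in Jersey and 156 in Holstein, with log2 folds of -2.39 and -1.97 for Cholistani over Holstein and over Jersey. This was the direction of the merged model at a larger size. The merged model had 241 times the FPKM of the separate HBBF model in Cholistani, 73.4 times in Jersey and 81.5 times in Holstein. HBB and HBBF are paralogs, and reads aligned to up to 20 places were kept in the study, so reads could be split between these models.

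HBA stood on a pair of short models of 768 bases each, on chromosome 25 from 669652 to 670419 and from 672706 to 673473. The first copy had 20.1 FPKM in Cholistani, 6.22 in Jersey and was listed at 0 in Holstein. The second copy had 69.3 FPKM in Cholistani, 11.5 in Jersey and was also listed at 0 in Holstein. Both copies were thus highest where the beta model was lowest. The log2 fold of Cholistani over Jersey was 1.55 for the first and 2.49 for the second copy, and with a pseudocount of 10 FPKM the first (0.89) was no longer 2-fold apart. Both models carry the same protein name, and how their reads were divided is not known, so their sum of 89.5 FPKM in Cholistani, 17.7 in Jersey and 0 in Holstein is the safer value. The beta model stood at 77.7 times this sum in Cholistani and 479 times in Jersey, and in Holstein it had 12696 FPKM beside 0 for HBA. Hemoglobin pairs these chains, and whether the HBA values measure the alpha chain mRNA was not tested. The opposite order is therefore a description of the listed values only.

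The HBA values were set beside those of models of like length. Among the 1897 models with spans of 500 to 1000 bases, a class chosen after the values were seen, the tenth percentile of the values above 0 was 11.3 FPKM in Cholistani, 10.2 in Jersey and 10.8 in Holstein. Of the 1897, 893 were above 0 in Cholistani, 856 in Jersey and 737 in Holstein, so in each library most were not above 0. The median of the values above 0 was 23.3 FPKM in Cholistani, 22.1 in Jersey and 27.3 in Holstein. In Jersey the first copy lay under the tenth percentile and the second just above it, while in Cholistani the first copy lay near the median and the second above it. AHSP, the alpha chain chaperone, was listed at 0 in all 3 libraries, as were the embryonic globin genes HBE1, HBE2 and HBZ, the alpha-like HBM, and MB, which encodes myoglobin. CYGB, cytoglobin, was listed at 0 in Cholistani and Holstein and had 27.7 FPKM in Jersey. Whether the HBA values of 0 in Holstein come from a lack of reads or from the estimate was not tested.

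The membrane genes gave little signal. EPB42 spanned bases 38361202 to 38379828 of chromosome 10. It had no estimate above 0 in Cholistani, 9.94 FPKM in Jersey and 13.5 in Holstein. It was near the low end of the values in both taurine libraries, at percentile 9.21 in Jersey and 12.3 in Holstein. Its order across the libraries was that of ALAS2. Because Cholistani was at 0, its call depended on the pseudocount, and with 10 FPKM in place of 1 it was no longer 2-fold lower than in Jersey. SLC4A1 was not found by name and is not analysed here.

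Counted over all 10 models, Cholistani exceeded Holstein by 2-fold or more in 3 (both HBA copies and ALAD), which compares with 19.7% of all 15284 models above 0. It lay below Holstein by 2-fold or more in 2 (ALAS2 and EPB42), against 13.7% of all models. Against Jersey 3 were higher (both HBA copies and UROD; 17.2% of all models) and 2 lower (ALAS2 and EPB42; 14.2%). Between Jersey and Holstein, 2 were higher in Jersey (both HBA copies; 7.99%) and 0 lower (4.7%). Several of these counts rest on a value of 0: EPB42 in both comparisons with Cholistani, and HBA in both comparisons with Holstein. The median log2 fold of the 9 models above 0 was -0.05 for Cholistani over Holstein, 0.00 over Jersey and -0.13 for Jersey over Holstein, against 0.15, 0.12 and 0.00 over all models. With so few models these shares say nothing particular to the group, and the comparisons share libraries, so they are not independent of each other.

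**Figure D3:**
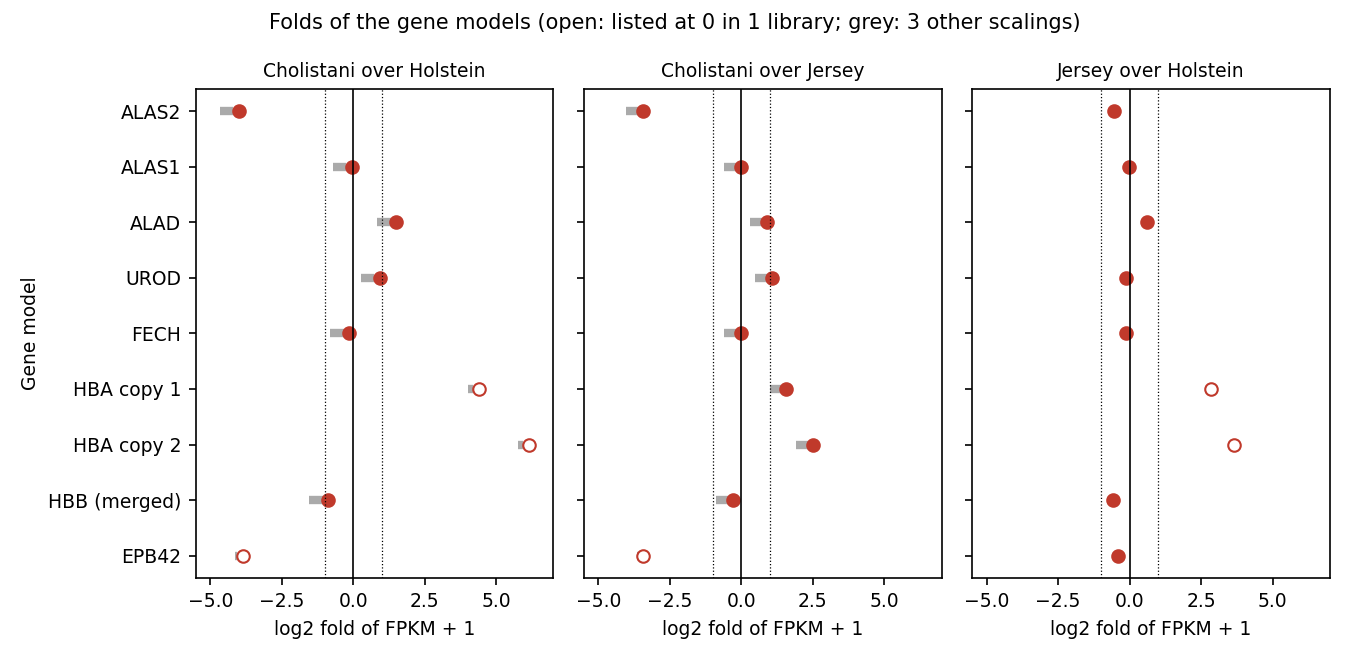
Log2 folds of FPKM + 1 (horizontal axis) of the 9 models above 0, for Cholistani over Holstein, Cholistani over Jersey and Jersey over Holstein; filled points have values above 0 in both libraries, open points are listed at 0 in 1 of them and depend on the pseudocount, grey bars span 3 other scalings and dotted lines mark 2-fold. ALAS2 lies left of the 2-fold line in both comparisons of Cholistani (-4.01 and -3.45), and for Cholistani over Holstein the grey bar of ALAD crosses the upper line (0.83 to 1.31) while that of HBB lies past the lower one (-1.55 to -1.06).

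Other genes of the red cell were measured in part, from lists chosen with earlier results of these data known. Of 23 genes of the membrane and its skeleton, 11 were found by name, and 4 of them were listed at 0 in all libraries: RHAG (the Rh-associated glycoprotein), KEL and ICAM4 (blood group antigens) and AQP1 (a water channel). The 2 most abundant, EPB41 (protein 4.1) and STOM (stomatin), are made in many cells. EPB41 had 757 FPKM in Cholistani, 829.6 in Jersey and 939.8 in Holstein, and STOM had 683, 469 and 614 FPKM in the same libraries. SLC2A1, a glucose transporter, passed 2-fold for Cholistani over Holstein on the deposited scale but under none of the 3 other scalings (86.4 FPKM in Cholistani, 45.3 in Jersey, 38.8 in Holstein; a log2 fold of 1.13, and 0.47 to 0.94 under those scalings). TMOD1, which caps actin filaments, had 53.6, 47.1 and 36.4 FPKM in Cholistani, Jersey and Holstein. In all, 1 of the 7 genes above 0 was higher and 2 (EPB42 and ERMAP, both listed at 0 in Cholistani) were lower than in Holstein, with a median log2 fold of 0.15 that was -0.53 after rescaling. This stands beside 19.7% higher and 13.7% lower over all models, with medians of 0.15 and -0.43, so it was not particular to these genes.

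Among late erythroid genes and enzymes, TRIM58, a ubiquitin ligase of late red cell maturation, ran with ALAS2. It had 19.2 FPKM in Cholistani, 60.1 in Jersey and 93.6 in Holstein, with log2 folds of -2.23 for Cholistani over Holstein and -1.60 over Jersey. PRDX2, an abundant peroxiredoxin of red cells that leukocytes also express, ran the other way. PRDX2 had 3593 FPKM in Cholistani, 2138 in Jersey and 1785 in Holstein, a log2 fold of 1.01 over Holstein that was 0.33 to 0.81 under the 3 other scalings. CA2, a carbonic anhydrase, had 56.1, 21.8 and 34.4 FPKM in Cholistani, Jersey and Holstein, and BNIP3L, which helps to clear mitochondria from reticulocytes, had 566, 619 and 655 FPKM. CA1, HEMGN and TSPO2 were listed at 0 in all libraries. Of the 8 genes above 0, 1 was higher and 2 (TRIM58 and SELENBP1) were lower in Cholistani, with a median log2 fold over Holstein of -0.22, beside 19.7% and 13.7% over all models. After rescaling 0 were higher and 2 lower, with a median of -0.87, beside 11.6% and 27.5%. SELENBP1, a selenium-binding protein, was listed at 0 in Cholistani.

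The regulators of the red cell lineage did not share 1 direction. TAL1, a factor of blood stem cells and red cell precursors, had 199.7 FPKM in Cholistani, 273 in Jersey and 438 in Holstein, a log2 fold of -1.13 for Cholistani over Holstein. ZFPM1, the cofactor of GATA1, had 118 FPKM in Cholistani, 38.6 in Jersey and 34.0 in Holstein, a log2 fold of 1.77 over Holstein. GATA1 itself, the master factor of the lineage, stood on a pair of models. Its chromosome 4 model had 37.7, 57.5 and 62.7 FPKM in Cholistani, Jersey and Holstein, and its chromosome X model 57.7, 29.9 and 36.7 FPKM. Their log2 folds of Cholistani over Holstein were -0.72 and 0.64, and -1.38 and -0.03 after rescaling. LMO2 had 1179, 1782 and 1635 FPKM, and NFE2, which is also used by platelets and their precursors, 1197, 641 and 637 FPKM in the same order of libraries. KLF1 was not found by name. Of the 8 regulators, ZFPM1 was the 1 higher and TAL1 the 1 lower gene, with a median log2 fold of -0.19, beside 19.7% higher and 13.7% lower over all models. After rescaling the counts were 1 higher and 4 lower, with a median of -0.87, beside 11.6% and 27.5% over all models. These counts and medians took GATA1 from its chromosome 4 model, which was among the 4 lower after rescaling, unlike its chromosome X model.

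Genes that carry or store heme and iron were mostly less than 2-fold apart. Of 28 listed, 19 were found, of which 0 were higher in Cholistani against Holstein, 2 were lower and 17 neither, with a median log2 fold of 0.13. Over all models 19.7% were higher and 13.7% lower than in Holstein, with a median of 0.15, and 14.2% were lower than in Jersey. After rescaling 5 were lower, with a median of -0.55, where 27.5% of all models were lower and their median was -0.43. BACH1, a repressor that heme releases from DNA, had 44.7 FPKM in Cholistani, 98.7 in Jersey and 136 in Holstein, a log2 fold of -1.58 for Cholistani over Holstein and -1.12 over Jersey. FLVCR1, a heme exporter, had 31.5, 72.9 and 65.4 FPKM, with log2 folds of -1.03 and -1.18. BACH1 and FLVCR1 were the 2 lower genes in both comparisons of Cholistani, but with a pseudocount of 10 FPKM neither was 2-fold lower than in Jersey (-0.99 and -0.998), and FLVCR1 was not 2-fold lower than in Holstein (-0.86). FTH1, the ferritin heavy chain and most abundant of the list, had 17048 FPKM in Cholistani, 12020 in Jersey and 9937 in Holstein, and FTL, the light chain, had 1945, 1760.03 and 1775 FPKM. For FTL the fold of Cholistani over Holstein, 0.13, turned to -0.55 after rescaling, and for FTH1 that of Cholistani over Jersey, 0.50, turned to -0.09. ABCG2, a transporter that exports porphyrins, had 46.6, 23.8 and 23.3 FPKM.

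**Figure D4:**
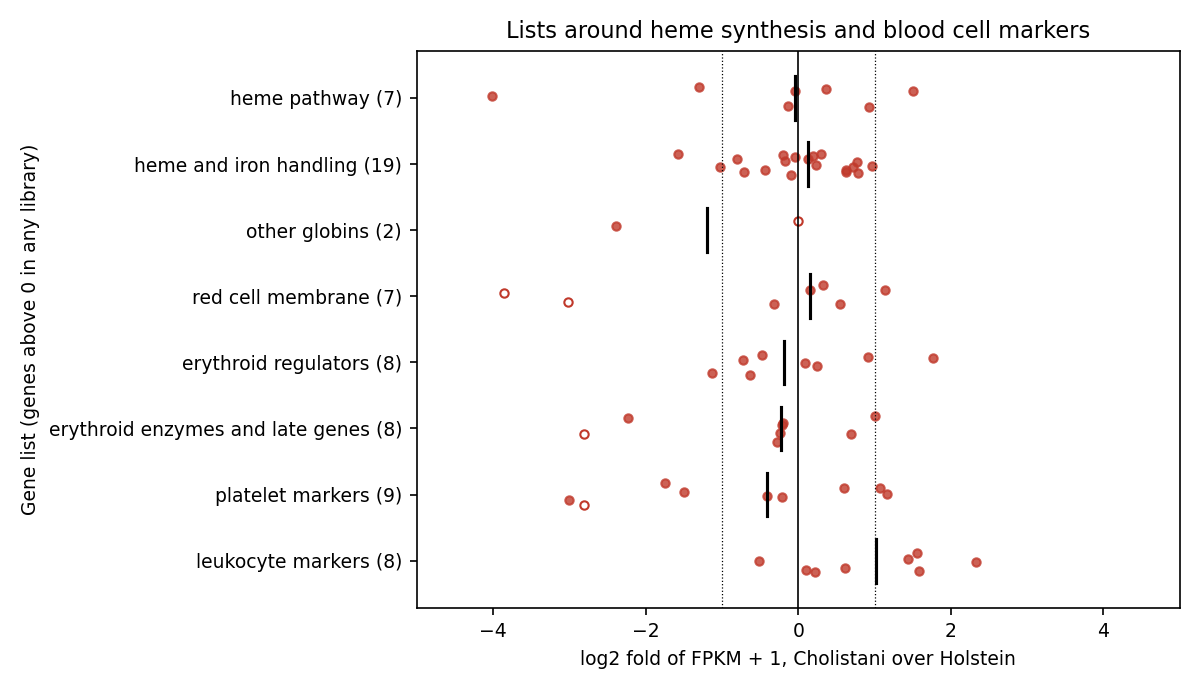
Log2 folds of FPKM + 1 of Cholistani over Holstein (horizontal axis) for each gene above 0 in any library in 8 lists (their numbers in parentheses); open points are listed at 0 in Cholistani, Holstein or both, black ticks are list medians and dotted lines mark 2-fold. ALAS2 at -4.01 is the leftmost point of the heme pathway, whose median is -0.05, and the leukocyte markers have a median of 1.02.

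Markers of other blood cells also differed between the libraries. The 9 platelet markers found summed to 1853 FPKM in Cholistani, 4383 in Jersey and 5909 in Holstein. Most of that difference was TUBB1, the beta tubulin of platelets, with 551 FPKM in Cholistani, 2997 in Jersey and 4430.1 in Holstein, a log2 fold of -3.01 for Cholistani over Holstein. Of the 9, 4 (TUBB1, TREML1, SELP and GP1BA) were lower and 2 (GP9 and CLEC1B) higher in Cholistani against Holstein, with a median log2 fold of -0.40. After rescaling 5 were lower and 0 higher, with a median of -1.08. Of all models 13.7% were lower and 19.7% higher as deposited, with a median of 0.15. After rescaling these were 27.5% and 11.6%, with a median of -0.43. Against Jersey 1 (TUBB1) was lower and 1 (THBS1) higher, with a median of 0, beside 14.2% and 17.2% of all models. After rescaling 4 were lower than in Jersey and 0 higher, beside 26.2% and 10.4% of all models. GP1BA was listed at 0 in Cholistani and Jersey. TREML1 had 45.5 FPKM in Cholistani, 80.8 in Jersey and 155 in Holstein, SELP 43.7, 80.7 and 126 FPKM, and PPBP, the most abundant platelet chemokine, 621, 939 and 821 FPKM. GP9 had 190 FPKM in Cholistani, 104 in Jersey and 84.5 in Holstein, CLEC1B 47.2, 23.4 and 21.9, and THBS1 292, 108 and 192. The part of platelets in the ALAS2 values was not tested.

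The 8 leukocyte markers found summed to 41274 FPKM in Cholistani, 26278 in Jersey and 28078 in Holstein, of which 4 (CD3E, CD79A, CSF3R and NKG7) were 2-fold or more above Holstein in Cholistani and 0 below. After rescaling 1 (NKG7) was higher and 1 (S100A8) lower. Among all models 19.7% were higher and 13.7% lower as deposited, and 11.6% and 27.5% after rescaling. NKG7 of cytotoxic cells had 1386 FPKM in Cholistani, 219 in Jersey and 275 in Holstein. CD79A of B cells had 14273, 6190 and 5281 FPKM, CD3E of T cells 6016, 2127 and 2041 FPKM, CSF3R of neutrophils 1976, 532 and 657 FPKM, and S100A8 of myeloid cells 7767, 9500.3 and 11065 FPKM in Cholistani, Jersey and Holstein. The part of the white cell mixture in the heme enzyme values was not tested. Of 8 markers of red cell precursors, SLC4A1 and KLF1 were not found by name, AHSP was at 0 in every library and EPB42 had at most 13.5 FPKM, whereas the merged beta globin model was high in each library and ALAS2, GATA1 and HBA had the values given above.

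The models whose pattern over the 3 libraries came nearest to ALAS2 were sought among 5818 others with a gene name and at least 50 FPKM in the highest library, by the distance between their folds of Cholistani over Holstein and of Jersey over Holstein. Nearest was DIRAS2, a Ras-family GTPase, at a distance of 0.82 in log2 units, with 19.8 FPKM in Cholistani, 220.4 in Jersey and 220.2 in Holstein. TUBB1 followed at 1.002, with the values given above. CLUS_BOVIN, clusterin, lay at 1.02, with 118 FPKM in Cholistani, 668 in Jersey and 941 in Holstein. CS071_BOVIN lay at 1.23 (58.7, 259 and 411 FPKM), and SLC24A3, a sodium, potassium and calcium exchanger, at 1.29 (15.0, 56.4 and 108 FPKM). In all 5 the fold of Cholistani over Holstein lay nearer to 0 than that of ALAS2. Of the 5818 models, 34 had a fold as low as that of ALAS2 or lower, and 0 of these were above 0 in all 3 libraries. With 3 libraries such likeness describes 2 folds per gene and no more.

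**Figure D5:**
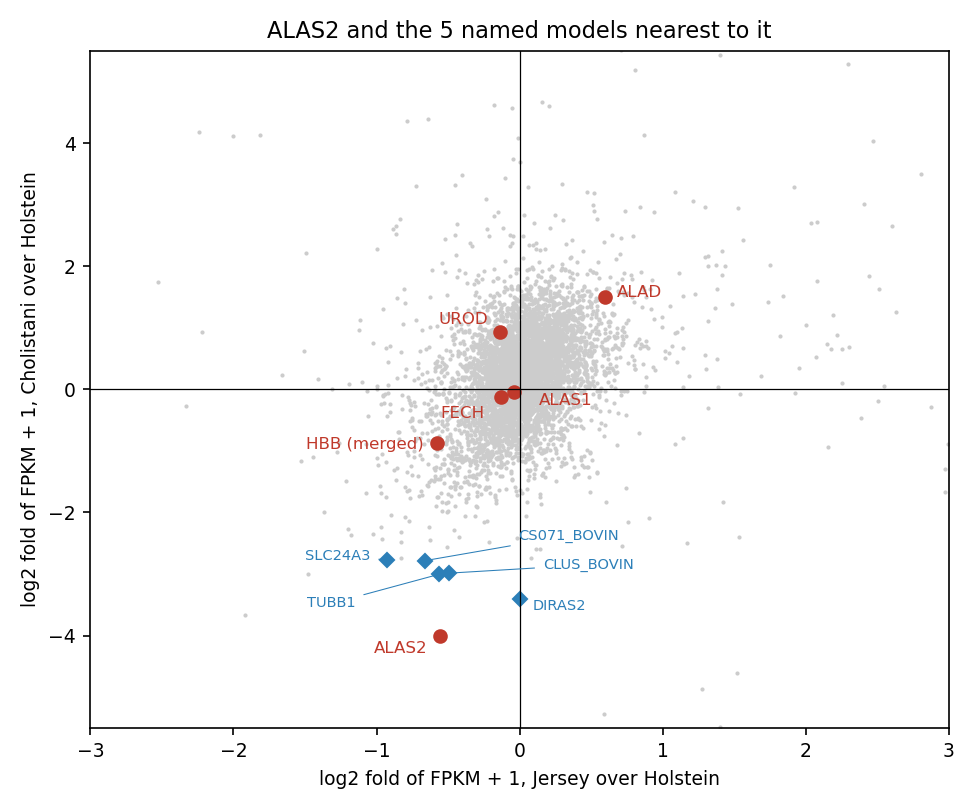
Log2 folds of FPKM + 1 of Jersey over Holstein (horizontal axis) and of Cholistani over Holstein (vertical axis) for models with a gene name and at least 50 FPKM in the highest library (grey; 113 of 5819 lie outside the axes), for 6 of the models described here (red circles) and for the 5 models nearest to ALAS2 (blue diamonds). ALAS2 lies at -0.56 and -4.01, below all 5 of its neighbours, while ALAS1 and FECH lie near the origin.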

How the data were processed

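Leukocyte RNA from pooled blood of 45 Cholistani, 7 Jersey and 40 Holstein cows gave 1 sequenced library each. For alignment to the bovine assembly btau4.0 the authors used TopHat 1.0.14 with Bowtie 0.12.7. Transcripts were assembled with Cufflinks 0.9.3, and the deposited FPKM per gene model had been normalized by the upper quartile, with a correction of sequence bias. Reads aligned to up to 20 places were kept.

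The FPKM were used as deposited. Listed starts count from 0, so 1 was added. The 5 models with a missing estimate were left out of folds, which were log2 ratios of FPKM + 1. Depth per gene is unknown, and no test was possible. Fold calling was tried on data simulated from Holstein values of at least 50 FPKM. These held no value at 0 and no difference in library scale, so calls that rest on either were not tested. The 10 members and 8 lists were chosen with earlier results of these data known. Merged models were matched to members only, and for list genes on several models the most abundant was taken. Named were all members and the heme enzymes analysed, per list the 2 most abundant genes and the 3 with the largest folds of Cholistani over Holstein among genes with at least 10 FPKM, and the 5 models nearest to ALAS2. The few other genes, those at 0 included, were named after their values were seen. No sequences were used here. A few genes of the lists are not reported here and were left out of all list values. Alternatives were pseudocounts of 0.1 and 10 FPKM, a minimum of 10 FPKM in the higher library, rescaling to the mean FPKM sum, centring on the median of models with at least 10 FPKM in both libraries, scaling to GAPDH, and summing the models of a member. Python 3.11.15, pandas 2.3.3 and matplotlib 3.10.9 were used.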

Additional observations from a re-analysis of the deposited data

How the results depend on the processing

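No paired analysis was possible because each breed has 1 library, and no replicate could be left out. Under the 7 alternatives, 0 of the named folds past 2-fold changed sign. The fold of ALAS2 for Cholistani over Holstein ranged from -4.67 to -3.69 and that over Jersey from -4.03 to -3.14. With a pseudocount of 10 FPKM or a minimum of 10 FPKM, 1 model (ALAS2) in place of 2 was 2-fold or more below Jersey in Cholistani, and 1 (the second HBA copy) in place of 2 was higher in Jersey than in Holstein. With the HBA models summed, 1 HBA gene in place of 2 models was higher in Jersey than in Holstein, by construction. The other counts of the 10 models stayed within 1.5 times their values, although ALAD or UROD left the higher models and the merged HBB model joined the lower ones under other scalings, and the first HBA copy left the higher models for Cholistani over Jersey with a pseudocount of 10 FPKM. Each comparison gave 270 values, that is the named folds under each of the 7 alternatives. Of these, 248 kept their side of the threshold for Cholistani over Holstein, 245 for Cholistani over Jersey and 267 for Jersey over Holstein. The minimum of 10 FPKM and the summing of models could not move a fold counted here, so part of this was fixed beforehand. Folds under that minimum were not counted. Signs changed in 9, 10 and 7 of the values, in the same order of comparisons. Of 96 list counts per comparison, 71, 73 and 92 stayed within 1.5 times.

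Over all models, rescaling gave 11.6% higher and 27.5% lower in Cholistani than in Holstein (19.7% and 13.7% as deposited) and 10.4% and 26.2% against Jersey (17.2% and 14.2%). Scaling to GAPDH gave 12.4% and 23.9% against Holstein and 11.4% and 21.7% against Jersey. A pseudocount of 10 FPKM gave 8.27% lower against Holstein, 8.69% lower against Jersey, and 4.85% higher and 2.64% lower in Jersey than in Holstein (7.99% and 4.7%). Values near the low end of the table, those of EPB42 and of HBA in Jersey above all, carry the least weight.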
